A study of Capra hircus with 10 samples.

Results

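The 10 genes described here encode apolipoproteins: APOA1, APOA2, APOA4, APOA5, APOB, APOC3, APOD, APOE, APOM and APOO. They were chosen by symbol among the protein-coding transcripts of the deposited table, and the table holds 10 of the 10 symbols, with 14 of its 43766 mRNA transcripts, out of 20587 gene symbols in all. The RNA came from whole ovaries of Anhui white goats, 5 from the luteal phase of the cycle and 5 from the follicular phase, obtained at a slaughterhouse. The labels give no age for the goats, and they do not say whether any of the ovaries came from the same goat, so p-values measure the spread between these ovaries. Each ovary gave its own total RNA library, depleted of ribosomal RNA. Values are FPKM, the fragments mapped to a transcript per kilobase of its length, scaled to the number of mapped fragments of the library and summed over the transcripts of a symbol.

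Apolipoproteins are the protein part of lipoproteins, the particles that carry cholesterol and other lipids through blood and tissue fluid. APOA1 is the main protein of high-density lipoprotein (HDL), APOB that of low-density and very-low-density lipoprotein, and APOE a ligand through which cells bind and take up lipoprotein remnants. In the ovary, steroid-producing cells take cholesterol from lipoproteins as raw material for progesterone, and the corpus luteum, which forms after ovulation, is the main site of that synthesis. In ruminants HDL carries most of the plasma cholesterol. APOO differs from the rest, since it is mainly known as a subunit of the MICOS complex that shapes the inner mitochondrial membrane.

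The phase labels were checked against marker genes. All 7 luteal markers tested (STAR, CYP11A1 under its symbol LOC102173131, LHCGR, PTGFR, OXT, FDX1 and FDXR) had more RNA in the luteal phase. At the threshold given below, 15.9% of all genes tested did so. Of the 8 granulosa cell markers, 4 (FSHR, AMH, FOXL2 and GJA1) had more in the follicular phase, against 27.8% of all genes tested. The other 4 (CYP19A1, INHA, INHBA and FST) did not pass the threshold and overlapped between the phases. FPKM summed to between 452508 and 540124 per ovary. The files hold no read counts, but the steps between low values in genes with a single transcript put the relative depth of the ovaries within a factor of 1.54, at 0.871 to 1.00 in luteal phase ovaries and 0.883 to 1.34 in follicular phase ovaries, with luteal phase replicate 2 set to 1. The absolute depth behind a value is unknown, and the spread between ovaries is the measure of error used. An FPKM of 0 means that a gene was listed at 0, not that its RNA was shown to be absent.

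Among those of the 10 genes that were tested, APOA1 had the largest change, and it rose in the luteal phase. Its FPKM in the 5 luteal phase ovaries was 3563, 5465, 5018, 3675 and 4466, and in the 5 follicular phase ovaries 404, 458, 430, 653 and 380. Every luteal phase ovary lay far above every follicular phase ovary, and follicular phase replicate 4 was the highest of its phase. The means were 4437 ± 828 and 465 ± 109 (SD, n = 5 each), and the log2 fold change, luteal minus follicular on the log2(FPKM + 0.1) scale, was 3.26 (standard error, SE, 0.17; adjusted p = 2.15e-07 in limma). This corresponds to a 9.59-fold higher level. The luteal cell markers moved with it, with STAR, which brings cholesterol into mitochondria, at 2651 ± 507 against 16.6 ± 5.58 (SD, n = 5 each). Their summed FPKM was 6264 to 8485 in the luteal phase and lay below that of APOA1 in each follicular phase ovary, and their part in the APOA1 difference was not tested. Among all genes, APOA1 ranked between 2nd and 5th by FPKM in the luteal phase ovaries and between 112th and 147th in the follicular phase ovaries. It made up 0.980 ± 0.178% of the summed FPKM of all genes in luteal phase ovaries and 0.0972 ± 0.0209% in follicular phase ovaries (SD, n = 5 each).

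Of the 10 apolipoprotein genes, 7 reached 0.1 FPKM in 5 or more ovaries and were tested together with all other genes that met this limit, 15359 in total. At an adjusted p under 0.05, 4 of these 7 were called. Among them APOA5 was tested because of its luteal phase level, so its call and its lack of overlap follow in part from the filter and the counts are a description only. Over all genes tested 43.7% were called, with 15.9% higher in luteal phase ovaries and 27.8% in follicular phase ovaries, so a count of 4 of 7 is near the background. APOA1, APOD and APOA5 were higher in luteal phase ovaries and APOE in follicular phase ovaries. These 4 were also the tested members whose phases did not overlap, against 28.4% of all genes tested (11.2% with the luteal phase higher and 17.2% with the follicular phase higher). Of the 14 member transcripts, 11 were tested and 4 called, 3 of them higher in the luteal phase. Over all 32842 transcripts tested, 17.3% were called, 7.47% higher in luteal phase ovaries and 9.82% in follicular phase ovaries. The median log2 fold change was 0.25 over the 7 members and -0.14 over all genes. In bulk RNA from whole ovaries, a change in the number of cells that hold a transcript cannot be told apart from a change in its amount per cell.

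**Figure D1:**
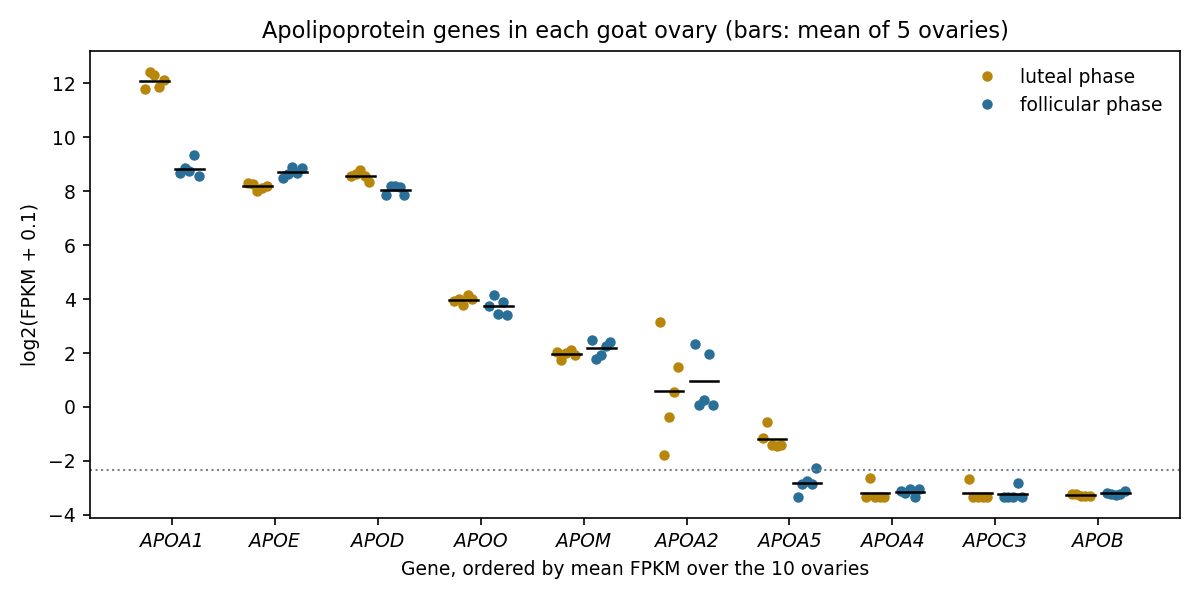
FPKM of the 10 apolipoprotein genes on the log2(FPKM + 0.1) scale (y axis), with genes ordered by mean FPKM (x axis). Each point is 1 ovary, black bars are means of 5 ovaries and the dotted line marks an FPKM of 0.1. APOA1 stands about 3.26 log2 units higher in the luteal phase, while APOA4, APOC3 and APOB lie below the dotted line in 10 of 10 ovaries.

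The members fell into 3 ranges of level. APOA1, APOE and APOD were among the abundant transcripts of the ovary, APOO, APOM and APOA2 had mean FPKM between 2.35 and 15.7, and APOA5, APOA4, APOC3 and APOB were under 1 in each ovary. In the luteal phase the order was APOA1, then APOD, then APOE, and the lowest APOD value, 320, was just above the highest APOE value, 319. In the follicular phase APOA1, with 380 to 653, and APOE, with 359 to 470, overlapped, and APOD, with 231 to 294, lay below both. The ratio of APOA1 to APOE FPKM was 15.4 ± 3.43 in luteal phase ovaries and 1.13 ± 0.310 in follicular phase ovaries (SD, n = 5 each). Summed over the 10 genes, FPKM was 5130 ± 835 in the luteal phase, of which APOA1 made up 86.2 ± 2.27%, and 1170 ± 129 in the follicular phase, of which APOA1 made up 39.4 ± 5.26%.

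**Figure D2:**
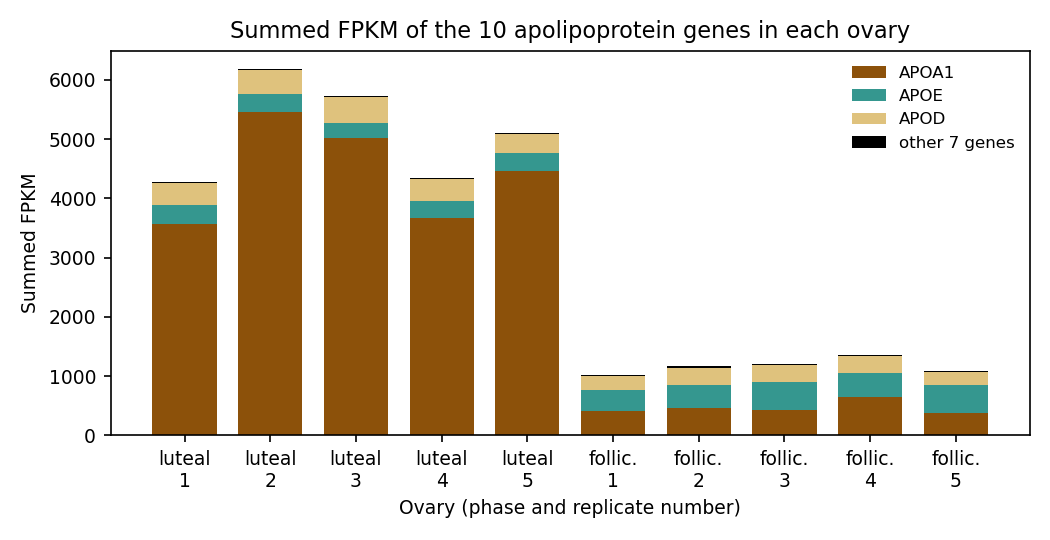
Summed FPKM of the 10 apolipoprotein genes (y axis) in each ovary (x axis), divided into APOA1, APOE, APOD and the other 7 genes. The luteal phase bars run from 4283 to 6184 and the follicular phase bars from 1021 to 1362, and the APOA1 part accounts for most of the height in the luteal phase.

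APOE, a ligand of lipoprotein receptors that many cells make, including macrophages and steroid-producing cells, was the member that fell in the luteal phase. Its FPKM was 319, 304, 256, 280 and 295 in the luteal phase ovaries and 359, 393, 470, 404 and 466 in the follicular phase ovaries. The phases did not overlap, although luteal phase replicate 1 and follicular phase replicate 1 came close to each other. The means were 291 ± 24.0 and 419 ± 48.1 (SD, n = 5 each), with a log2 fold change of -0.52 (SE 0.10, adjusted p = 0.00145 in limma). Relative to the median of all genes the difference was -0.38. With the other scalings it was between -0.62 and -0.42. Among macrophage markers the larger number of calls was in the other direction. Of 10 tested, 5 were higher in the luteal phase (C1QA, C1QB, C1QC, MRC1 and CSF1R) and 2 in the follicular phase (ADGRE1 and lysozyme, under the symbol S-LZ). Their summed FPKM was 269 to 374 in luteal phase ovaries and 111 to 204 in follicular phase ovaries, and none of these markers was at 0 in all ovaries. Of the 8 granulosa cell markers, 4 were lower in the luteal phase, as APOE was, and 0 higher, with a median log2 fold change of -0.99 against -0.14 over all genes. Their summed FPKM, 404 to 1124 and 620 to 1846, overlapped between the phases. The part of either cell type in the APOE difference was not tested.

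APOE was listed with 3 transcripts, of which 1 was called. XM_018062561.1, the most abundant, was at 179 ± 20.4 in luteal phase ovaries against 302 ± 30.3 in follicular phase ovaries (SD, n = 5 each), which is a log2 fold change of -0.75 (SE 0.10, adjusted p = 0.000719 in limma across transcripts). The phases overlapped for XM_018062562.1, with 102 ± 9.84 and 97.2 ± 32.3 (0.14 on the log2 scale, adjusted p = 0.723). XM_018062563.1, the least abundant, had 9.78 ± 5.44 and 19.4 ± 6.28 (-1.12 on the log2 scale, adjusted p = 0.104). The share of XM_018062562.1 in the FPKM of APOE was 31.9% to 40.8% in the luteal phase ovaries and 16.5% to 31.3% in the follicular phase ovaries. The mean difference of 12.2 percentage points had a two-sided exact permutation p of 0.00794, the smallest that 5 ovaries against 5 can give, and of 0.0476 after Benjamini-Hochberg adjustment over the 6 transcript shares of APOE and APOM. For XM_018062561.1 the shares were 61.5 ± 2.61% and 72.5 ± 7.38%, with overlapping phases (exact permutation p = 0.0238, adjusted 0.0714). These shares were compared after the transcript values had been seen. Among the follicular phase ovaries, replicates 1 and 2 stood apart with XM_018062562.1 at 16.5% each, whereas replicates 3, 4 and 5 had 25.0%, 31.3% and 25.2%.

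**Figure D3:**
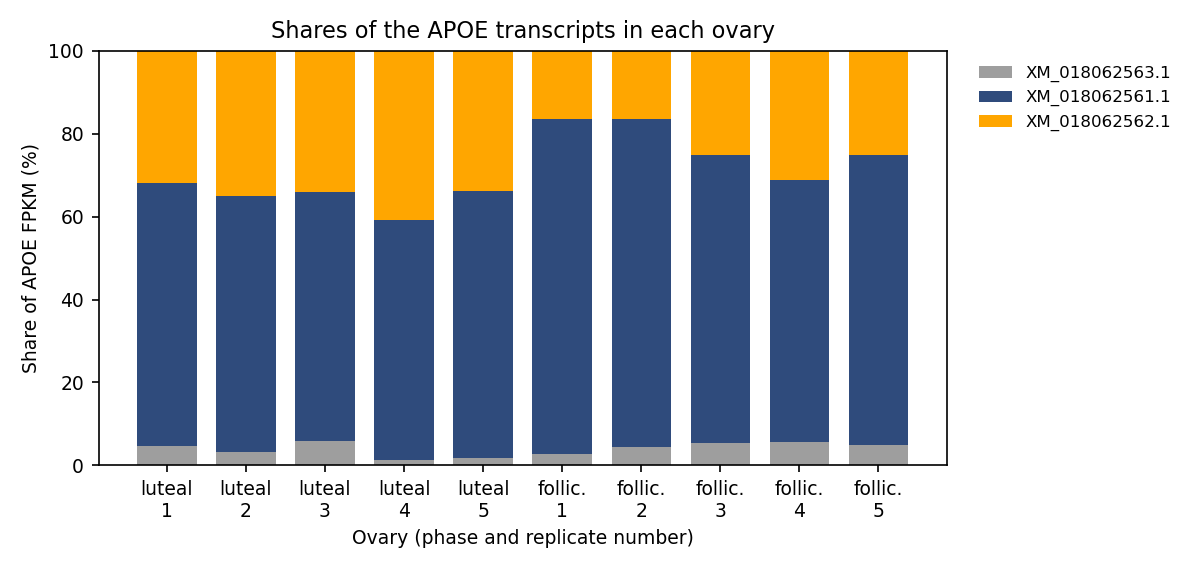
Share of each APOE transcript in the summed APOE FPKM in percent (y axis) for each ovary (x axis). The upper part, XM_018062562.1, takes 31.9% to 40.8% in the luteal phase ovaries and 16.5% to 31.3% in the follicular phase ovaries.

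APOD, a lipocalin that binds small hydrophobic molecules such as arachidonic acid and progesterone, rose in the luteal phase. Its FPKM was 374, 395, 436, 374 and 320 in the luteal phase ovaries and 234, 290, 294, 281 and 231 in the follicular phase ovaries. All 5 luteal phase values lay above all 5 follicular phase values. The means were 380 ± 41.9 and 266 ± 30.9 (SD, n = 5 each), with a log2 fold change of 0.51 (SE 0.10, adjusted p = 0.00263 in limma). The value was between 0.43 and 0.61 with the other scalings. Of 8 ovarian stroma markers, 3 were higher in the luteal phase (LUM, COL3A1 and COL1A2) and 2 in the follicular phase (TCF21 and OGN). This is 62.5% against 43.7% of all genes. The summed FPKM of the stroma markers overlapped between the phases, at 3424 to 5743 and 2719 to 3843. Whether these cells had a part in the APOD difference was not tested.

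APOA5, which promotes the breakdown of triglyceride-rich lipoproteins by lipoprotein lipase, was expressed at a very low level. It had an FPKM of 0.350, 0.588, 0.280, 0.263 and 0.273 in the luteal phase ovaries. In the follicular phase it was listed at 0 in replicate 1 and had 0.0367, 0.0498, 0.0395 and 0.109 in the others. The phases did not overlap, and luteal phase replicate 2 was the highest. The means were 0.351 ± 0.137 and 0.0469 ± 0.0393 (SD, n = 5 each), with a ratio of 7.48, and the log2 fold change was 1.61 (SE 0.25, adjusted p = 0.000557 in limma). At such levels the pseudocount sets the size of the log2 fold change, which was 0.36 with a pseudocount of 1 and 2.97 with a pseudocount of 0.01. Only follicular phase replicate 5 and the luteal phase ovaries reached an FPKM of 0.1, so APOA5 was tested because of its level in the luteal phase.

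APOA2, APOM and APOO did not pass the test. APOA2, the second main protein of HDL in many mammals, varied more between ovaries than between phases, with 8.71, 0.192, 0.669, 1.37 and 2.70 in luteal phase ovaries and 4.95, 0.956, 1.11, 3.76 and 0.964 in follicular phase ovaries. Luteal phase replicate 1 and follicular phase replicates 1 and 4 were high, and the remaining ovaries had 2.70 or less. The log2 fold change was -0.34 with a 95% interval of -2.12 to 1.45 (limma adjusted p = 0.756), an interval that includes differences of 2-fold in either direction. APOM, an HDL protein that carries sphingosine-1-phosphate, was at 3.81 ± 0.373 and 4.50 ± 0.932 (SD, n = 5 each). Its log2 fold change was -0.21 with a 95% interval of -0.54 to 0.11 (adjusted p = 0.261), and none of its 3 transcripts was called. For APOO the means were 15.7 ± 1.37 and 13.4 ± 2.96, and the log2 fold change was 0.25 with a 95% interval of -0.05 to 0.55 (adjusted p = 0.155). The APOO difference passed the threshold on the TPM scale (0.35, adjusted p = 0.0465) and without follicular phase replicate 2 (0.36, adjusted p = 0.0285), the ovary with the highest APOO value, 17.6, of the follicular phase.

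APOB, APOC3 and APOA4 had too little signal for a test. APOB, the structural protein of very-low-density lipoproteins made in liver and intestine, ranged from 0.00138 to 0.0166 over the 10 ovaries. APOC3, an inhibitor of lipoprotein lipase, was listed at 0 in 8 ovaries and reached at most 0.0565. APOA4, a protein of intestinal lipoproteins, was listed at 0 in 5 ovaries and reached at most 0.0621. Liver and intestine are the organs that supply most plasma apolipoproteins, and their markers were at low levels. The 9 hepatocyte markers in the table had a summed FPKM of 1.53 to 4.36 in luteal phase ovaries and 2.45 to 5.67 in follicular phase ovaries, with ALB at no more than 0.106 in any ovary. FGG, a fibrinogen chain gene, was the most abundant of them in the luteal phase, at 2.41 ± 1.06 against 1.09 ± 1.31 (SD, n = 5 each), and was not called (1.71, adjusted p = 0.0850). The other tested hepatocyte markers, TTR (-1.63, adjusted p = 0.000645) and AHSG (-0.93, adjusted p = 0.0148), were lower in the luteal phase. AHSG reached 0.1 FPKM in 8 ovaries and was tested because of its follicular phase level. The 6 enterocyte markers summed to at most 0.118, and FABP2 was listed at 0 in all 10 ovaries. No enterocyte marker reached the level for a test, and the part of either cell type in the APOA1 difference was not tested.

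The neighbours of APOA1 were examined next. In RefSeq's annotation of goat assembly ARS1.2, which served for gene order only, the protein-coding genes that follow APOA1 are LOC102179867, APOC3, APOA4, APOA5, ZPR1 and BUD13, and those before it are SIK3, PAFAH1B2, SIDT2, TAGLN and PCSK7. LOC102179867, which the study names apolipoprotein A-I as well, had an FPKM of 110, 170, 169, 123 and 128 in the luteal phase ovaries and was listed at 0 in all 5 follicular phase ovaries. In the luteal phase its level was 3.16 ± 0.207% of that of APOA1 (SD, n = 5). It passed the filter only through the luteal phase, and no fold is given against values listed at 0. How fragments that match both genes were divided is not given in the sources used here, so the values of this pair are uncertain. With the FPKM of both genes summed, a step added after the values were seen, the log2 difference between the phases was 3.31, close to that of APOA1 alone.

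ZPR1, which encodes a zinc finger protein that binds growth factor receptors and translation elongation factor 1A, also rose in the luteal phase. It was at 154 ± 35.1 against 42.1 ± 4.83 (SD, n = 5 each), with a log2 fold change of 1.85 (SE 0.15, adjusted p = 5.75e-06 in limma) and no overlap. Its neighbour BUD13, a splicing factor gene, was lower in the luteal phase by contrast, at 6.17 ± 0.246 against 8.49 ± 0.823 (-0.45 on the log2 scale, adjusted p = 0.00174). SIK3, the protein-coding gene just before APOA1, was at 4.57 ± 0.605 and 5.17 ± 0.392 (-0.18 on the log2 scale, adjusted p = 0.204). Of 9 genes listed for this neighbourhood in mammals, PCSK7 and ZPR1 were higher in luteal phase ovaries. TAGLN, RNF214, BUD13 and CADM1 were higher in follicular phase ovaries, while SIK3, PAFAH1B2 and SIDT2 were not called. The calls are 66.7% of the list against 43.7% of all genes, in both directions, with a median log2 fold change of -0.18. RNF214 and CADM1 are on the list but not among the RefSeq neighbours named above. The call for RNF214 (adjusted p = 0.0441) was lost with no filter, under exact permutation and under each other scaling (adjusted p between 0.0571 and 0.218, the highest for TPM), and without luteal phase replicate 1, 2, 4 or 5 or follicular phase replicate 1, 3 or 5 (adjusted p of at most 0.105). That for CADM1 (adjusted p = 0.0382) was lost without the trend in eBayes, under exact permutation and under each other scaling (adjusted p between 0.0514 and 0.154, the highest for TPM), and without luteal phase replicate 1, 2, 3 or 4 or follicular phase replicate 1, 3, 4 or 5 (adjusted p of at most 0.0884).

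**Figure D4:**
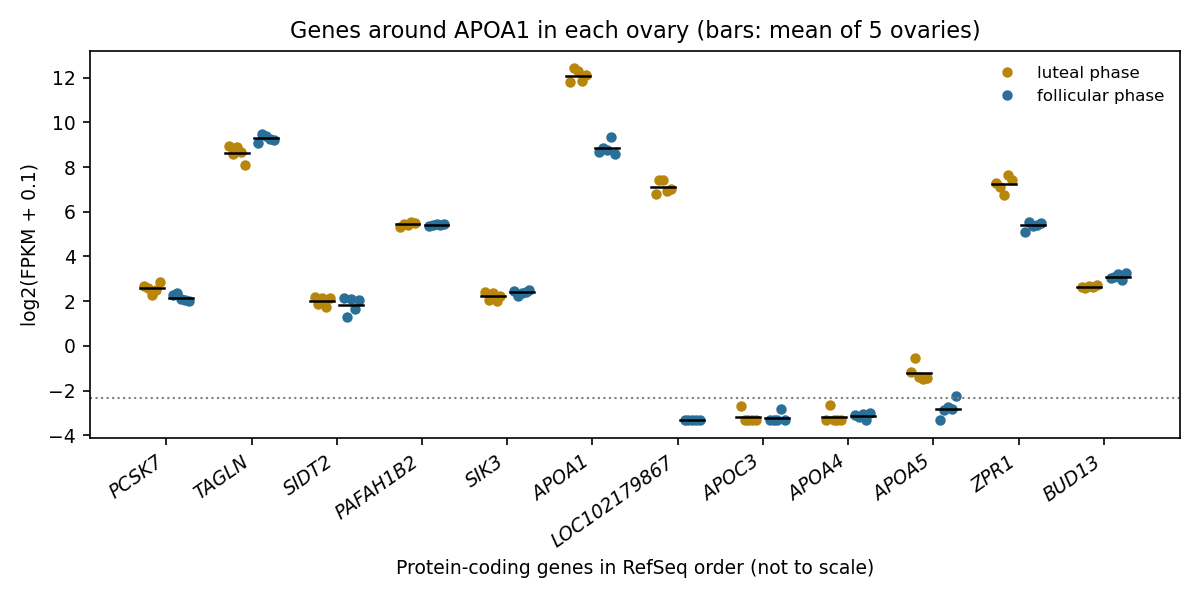
FPKM on the log2(FPKM + 0.1) scale (y axis) of the protein-coding genes around APOA1 in RefSeq order, not to scale (x axis). Points are single ovaries, bars are means of 5 ovaries and the dotted line marks an FPKM of 0.1. APOA1, LOC102179867, APOA5 and ZPR1 are higher in the luteal phase without overlap, APOC3 and APOA4 between them stay under the dotted line, and TAGLN and BUD13 are lower in the luteal phase.

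The study names 3 TUCPs (transcripts of uncertain coding potential) in connection with apolipoprotein genes. Its list of gene and TUCP pairs gives TUCP_000751 and TUCP_000118 beside members, while TUCP_000882 is named beside them in its text and paired with other genes in that list. Since the study chose them on these samples, their differences are not independent evidence. TUCP_000751, listed with APOA1, APOA4 and LOC102179867, had 2.54, 2.12, 2.11, 2.06 and 1.42 in the luteal phase ovaries and 0.328, 0, 0, 0.405 and 0.257 in the follicular phase ovaries. Its log2 fold change was 3.15 (SE 0.50, adjusted p = 0.00227 in limma). It reached 0.1 FPKM in 8 ovaries and was tested because of its luteal phase level. TUCP_000118, listed with APOA5, was at 2.51 ± 1.23 and 0.0278 ± 0.0136 (SD, n = 5 each) and reached 0.1 FPKM only in the luteal phase. It therefore had to differ to be tested, and its log2 fold change of 4.24 is given as a description. With pseudocounts of 1 and 0.01 the log2 fold changes were 1.35 and 4.62 for TUCP_000751 and 1.71 and 6.0 for TUCP_000118. Their size therefore depends on the pseudocount. TUCP_000882 was at 5.20 ± 0.862 and 1.87 ± 0.717 (SD, n = 5 each) without overlap, and its log2 fold change was 1.498 (SE 0.26, adjusted p = 0.00374 in limma). In the deposited table TUCP_000751 stands between the rows of APOA1 and LOC102179867, whereas TUCP_000118 stands between those of KCNE4 and ACSL3 and TUCP_000882 between those of MAMSTR and IZUMO1, the nearest rows with a symbol. The positions of the TUCPs themselves were not analysed here.

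Of 7 tested genes listed around APOE in mammals, 3 were called, 42.9% against 43.7% of all genes. In RefSeq order TOMM40, a mitochondrial import pore gene, precedes it and APOC4, APOC2 and CLPTM1 follow. TOMM40 was at 22.9 ± 4.00 and 25.7 ± 6.96 (-0.15 on the log2 scale, limma adjusted p = 0.525), NECTIN2 at 15.4 ± 1.58 and 17.1 ± 1.21 (-0.15, adjusted p = 0.167) and CLPTM1 at 14.4 ± 1.88 and 13.7 ± 1.47 (0.07, adjusted p = 0.632; SD, n = 5 each). Of the 7 genes tested there, BCAM (0.49, adjusted p = 0.00448) and BCL3 (0.86, adjusted p = 0.00720) were higher in the luteal phase, CLASRP (-0.39, adjusted p = 0.0208) in the follicular phase, and RELB was not called (0.12, adjusted p = 0.520). The median was 0.07. BCL3 and CLASRP are on the list but not among the nearest RefSeq genes examined. The CLASRP call was lost on the TPM scale (adjusted p = 0.117) and without luteal phase replicate 4 (0.0542) or follicular phase replicate 3 (0.0516). APOC4 was listed at 0 in all 5 luteal phase ovaries and at 0.0853 to 0.165 in the follicular phase ovaries. CBLC, which comes before APOE, was listed at 0 in the luteal phase ovaries too and at 0.0463 to 0.151 in the follicular phase ovaries. Neither reached the level for a test. With no filter, 4 genes of the list around APOE were called. APOC2, the activator of lipoprotein lipase, was at 0.109 ± 0.110 and 0.0920 ± 0.0691 (adjusted p = 0.924). Of the 7 further apolipoprotein-named genes in the table, 5 were tested and 1 was called, 20.0% against 43.7% of all genes. The gene called was LOC102179867, which passed the filter only through the luteal phase. APOLD1, APOBR and APOOL, with log2 fold changes of -0.29, 0.07 and 0.11, were not.

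Genes for lipoprotein receptors and the proteins that act on them changed in both directions. Of 13 tested, 5 were higher in the luteal phase, 2 in the follicular phase and 6 were not called, which is 53.8% against 43.7% of all genes, with a median log2 fold change of 0.11. SCARB1, the HDL receptor that takes up cholesteryl esters from particles built on APOA1, had the largest difference of the list. Its FPKM was 146, 140, 136, 172 and 204 in the luteal phase ovaries and 11.8, 9.68, 8.34, 9.22 and 9.62 in the follicular phase ovaries (4.01 on the log2 scale, standard error 0.12, limma adjusted p = 2.29e-09). VLDLR (1.01), its chaperone LRPAP1 (0.47) and the scavenger receptors CD36 (1.09) and STAB2 (1.22) were also called higher in the luteal phase. STAB2 was at a low level, 0.429 against 0.130 FPKM, and reached 0.1 FPKM in 7 ovaries, the 5 of the luteal phase and 2 of the follicular phase, so it was tested because of its luteal phase level. Its value was 0.34 with a pseudocount of 1 and 1.73 with a pseudocount of 0.01. Luteal markers (7 of 7), endothelial markers (5 of 6) and macrophage markers (5 of 10, with 2 lower) were also higher in the luteal phase. Granulosa cell markers were lower in 4 of 8. Over all genes 15.9% were higher and 27.8% lower. The part of these cell types in the receptor differences was not tested.

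MYLIP, a ubiquitin ligase that marks lipoprotein receptors for degradation, had less RNA in the luteal phase, at 17.0 ± 3.85 against 33.9 ± 6.96 (SD, n = 5 each; log2 fold change -0.997, limma adjusted p = 0.000804). SORT1, a sorting receptor that binds APOB, was also lower (-0.55, adjusted p = 0.000652). LRP1 and LRP8, which are among the receptors of APOE, were not called, while VLDLR was, as given above. LRP1 was at 34.0 ± 9.26 and 36.2 ± 9.51 (adjusted p = 0.776), and LRP8 at 7.93 ± 5.93 and 8.29 ± 3.87 (adjusted p = 0.728), with 95% intervals of -0.57 to 0.40 and -1.29 to 0.84 for their log2 fold changes.

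**Figure D5:**
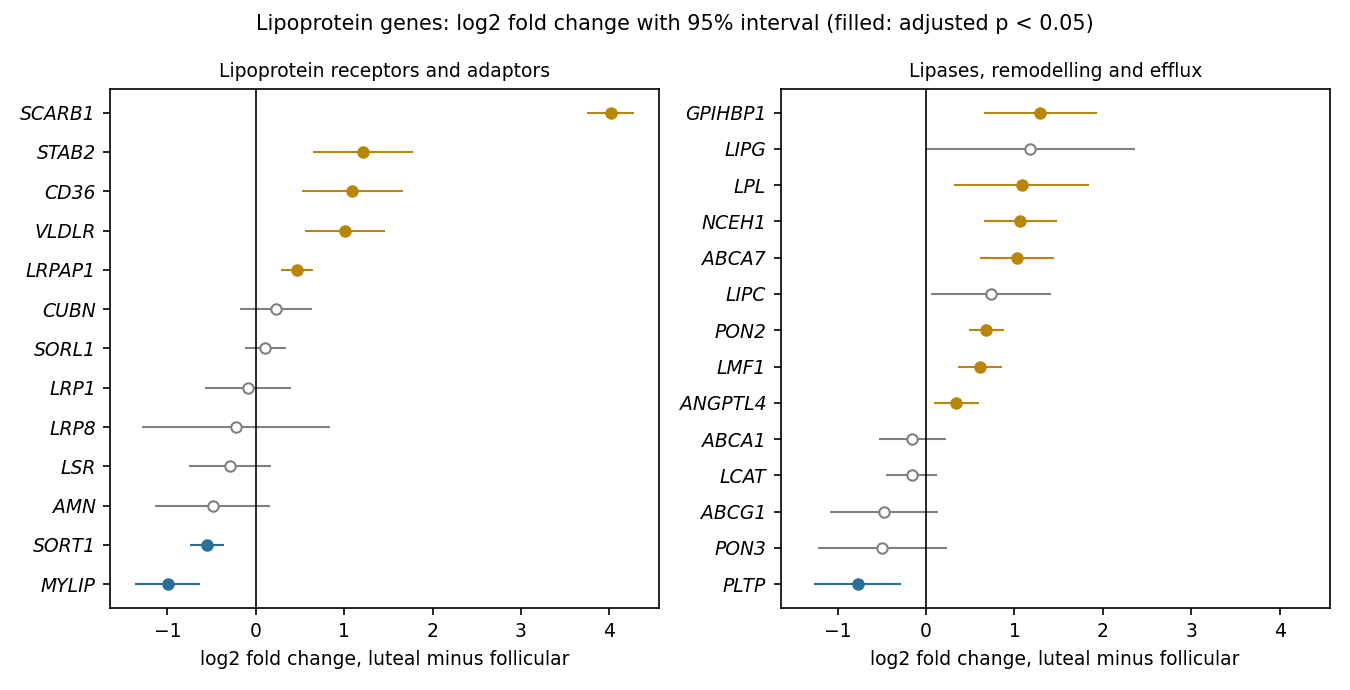
log2 fold change, luteal minus follicular (x axis), of the 13 genes for receptors and proteins that act on them and the 14 lipase, remodelling and efflux genes that were tested (y axes), with 95% intervals from limma. Filled points have an adjusted p under 0.05. SCARB1 at 4.01 stands apart from the rest, which lie between -0.997 and 1.29.

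Of 14 tested genes for lipases, lipoprotein remodelling, lipid transfer and cholesterol efflux, 7 were higher in luteal phase ovaries and 1 in follicular phase ovaries, which is 57.1% against 43.7% of all genes, with a median log2 fold change of 0.65. Among the genes of the vascular lipase system, GPIHBP1, the capillary anchor of lipoprotein lipase, was at 1.38 ± 0.395 and 0.523 ± 0.240 (SD, n = 5 each; log2 fold change 1.29, limma adjusted p = 0.00457), and its value was 0.64 with a pseudocount of 1. LMF1, which folds that lipase, changed by 0.61 (adjusted p = 0.00151). The lipase itself, LPL, was at 69.3 ± 34.4 and 30.0 ± 8.39 with overlapping phases (1.08, adjusted p = 0.0266), and its call was lost without luteal phase replicate 4 or 5 or without follicular phase replicate 1 or 4, with adjusted p between 0.0578 and 0.0666, and under exact permutation (0.0842). Its inhibitor ANGPTL4 changed by 0.34 (adjusted p = 0.0337), a call lost without luteal phase replicate 2, 3, 4 or 5 or follicular phase replicate 1, 3 or 4 (adjusted p of at most 0.0775) and under exact permutation (0.0842). Of 6 endothelial markers, 5 (PECAM1, VWF, CDH5, TEK and KDR) were also higher in the luteal phase, 83.3% against 43.7% of all genes called. Endothelial markers had a summed FPKM of 207 to 258 against 106 to 128, and their part in these differences was not tested.

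NCEH1, a cholesteryl ester hydrolase (1.07, limma adjusted p = 0.00106), ABCA7, a lipid transporter (1.03, adjusted p = 0.00146), and PON2, a paraoxonase of cell membranes (0.68, adjusted p = 0.000175), were higher in the luteal phase as well. ABCA7, at 0.731 against 0.302 FPKM, had 0.40 with a pseudocount of 1. PLTP, which moves phospholipids between lipoproteins, was the gene of this list that was lower, at 16.1 ± 3.48 against 28.5 ± 9.79 (SD, n = 5 each; log2 fold change -0.77, adjusted p = 0.0160). ABCA1, which loads cholesterol onto APOA1, was at 19.5 ± 4.22 and 21.8 ± 5.02 (-0.16, 95% interval -0.53 to 0.22, adjusted p = 0.486). LCAT, the enzyme that APOA1 activates, was at 4.46 ± 0.521 and 5.03 ± 0.828 (-0.16, adjusted p = 0.343). ABCG1, which exports cholesterol to HDL, was at 0.896 ± 0.402 and 1.21 ± 0.286 (adjusted p = 0.187).

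Of 9 tested partners of APOO in and around the MICOS complex, 2 were called. C7H19orf70 (0.42, limma adjusted p = 0.00410) was higher in luteal phase ovaries and CHCHD6 (-0.60, adjusted p = 0.00401) in follicular phase ovaries, which is 22.2% against 43.7% of all genes, with a median of 0.11. APOOL, the nearest relative of APOO in the complex, was at 19.7 ± 0.643 and 18.3 ± 1.65 (SD, n = 5 each; 0.11, adjusted p = 0.244), and IMMT, the core subunit, at 34.9 ± 3.46 and 31.1 ± 5.70 (0.18, adjusted p = 0.245).

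For the 6 members with a mean FPKM of at least 1, the genes with the most similar profile over the 10 ovaries were sought among 12580 others. Similarity was the mean absolute difference of log2(FPKM + 0.1) after each gene's own mean was subtracted. Nearest to APOA1 were TSPAN12 (0.24), TMEM54 (0.26) and FDX1 (0.28), the last of which encodes the ferredoxin that passes electrons to CYP11A1 in steroid synthesis. FDX1 was at 476 ± 52.8 in luteal phase ovaries and 45.0 ± 5.92 in follicular phase ovaries (SD, n = 5 each). VKORC1 (0.08), LZTFL1 (0.09) and SLC17A5 (0.09) were nearest to APOD, and LOC102175434 (0.06), ANO5 (0.06) and OSBPL10 (0.07), an oxysterol-binding protein gene, were nearest to APOE. For APOO they were C1QBP (0.05), SRPRB (0.05) and PSMA5 (0.06), and for APOM they were MARC2, FGF12 and BPGM at 0.08 each.

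The genes nearest to APOA2 were farther away, LRP8 at 0.67, INHBA at 0.72 and REG4 at 0.73. LRP8, a receptor of APOE, had 17.8, 4.52, 2.40, 6.59 and 8.37 in the luteal phase ovaries and 12.1, 7.55, 3.59, 12.4 and 5.83 in the follicular phase ovaries. INHBA, which encodes an activin and inhibin subunit made by granulosa cells, had 150, 32.6, 13.3, 56.6 and 90.8 in luteal phase ovaries and 288, 42.0, 67.9, 194 and 129 in follicular phase ovaries. The 3 ovaries with the most APOA2, luteal phase replicate 1 and follicular phase replicates 1 and 4, were also the 3 with the most LRP8 and the 3 with the most INHBA. These genes were picked for their likeness, so this is a description of the same 10 ovaries and carries no test.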

How the data were processed

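The deposited FPKM per transcript and ovary come from Cuffdiff, which the authors ran after HISAT2 alignment and StringTie assembly. Ovaries were not pooled. The genome build is not given in the sources used here. The deposited mRNA and annotated lncRNA tables repeat rows of the transcript table and were not used separately. FPKM of protein-coding rows were summed by symbol and taken as log2(FPKM + 0.1), with no rescaling. Genes or transcripts that reached 0.1 FPKM in 5 or more ovaries entered limma 3.58.1 (lmFit, eBayes with trend) in R 4.3.3, luteal minus follicular, two-sided, with Benjamini-Hochberg adjustment over all features tested. Calls are results with an adjusted p under 0.05. Other steps used Python 3.11.15, with matplotlib 3.10.9, scipy 1.17.1, pandas 2.3.3 and numpy 2.4.6.

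The members and lists were chosen with earlier results of these data known. Named were all members, their transcripts, the TUCPs named with them and every called gene of the pathway lists. The protein-coding genes listed beside APOA1 and APOE and the 3 nearest profiles per member were named too. Genes of a list with no row in the table were not analysed here, and some genes of the receptor list are not reported here. The fits were also run on these values with the phase means removed and known differences added to some features. This checks the code only, since the other features had no difference left that could be called. Alternatives were pseudocounts of 1 and 0.01, a filter at 0.5 FPKM or none, 3 other scalings (TPM, a common median for all ovaries, quantile normalization), limma with no trend, exact permutation over all 252 divisions, a replicate block, the highest transcript only and leaving out each ovary. No sequences were used here.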

Additional observations from a re-analysis of the deposited data

Results flagged for a closer look

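In the groups of 5 ovaries, a value was singled out where its gap to the next ovary exceeded Dixon's 95% limit for the range of its group. This was examined in 100 groups of 50 genes or transcripts and found in 6 of them. Chance gives about 5% of groups, so a number of this order is what chance would give. Among the members, APOA1 was at 653 in follicular phase replicate 4, against 380 to 458 in the other follicular phase ovaries, and APOA5 was at 0.588 in luteal phase replicate 2, against 0.263 to 0.350. Of the receptors, VLDLR was at 1.17 in follicular phase replicate 2 (others 2.32 to 2.56). PLTP was at 22.1 in luteal phase replicate 2 (others 13.9 to 15.9), ANGPTL4 at 10.7 in luteal phase replicate 1 (others 15.1 to 16.7) and BCL3 at 3.79 in luteal phase replicate 5 (others 2.12 to 2.50).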

How the results depend on the processing

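The calls of APOA1, APOD and APOE kept their direction and stayed under 0.05 in all alternatives. APOA5 did so where it was tested, which was because of its luteal phase level and not at a minimum FPKM of 0.5, so this says nothing about its stability. The log2 fold changes ran from 3.18 to 3.39 for APOA1, 0.46 to 0.57 for APOD, -0.57 to -0.48 for APOE and 1.45 to 1.75 for APOA5 without 1 ovary. Between 4 and 5 members were called without 1 ovary and between 3 and 5 under the other alternatives. Over all genes, 36.3% of calls were higher in the luteal phase, against 52.5% for TPM, 48.8% with a common median and 41.8% with quantile normalization, and the median log2 fold change moved from -0.14 to -0.05, -0.05 and -0.09. Exact permutation called 0 of the member transcripts and 0 of the 3 TUCPs after adjustment, where the lowest adjusted p over all transcripts was 0.0520. Of the member transcripts, this compares with 4 at an unadjusted p under 0.05 and 4 by limma. Of the further apolipoprotein-named genes, 2 were called without the filter and 2 with a common median, against 1, and 2 to 4 MICOS genes were called without 1 ovary, 4 of them without follicular phase replicate 2. Directions turned in these results that were not called: APOA2, with -0.97 to 0.26 without 1 ovary, XM_018062562.1, with -0.0243 to 0.25, XM_005696599.3, with -0.67 to 0.61 and with 0.0409 at a pseudocount of 1, PAFAH1B2, with -0.0405 after quantile normalization, and CLPTM1, with -0.0037 to 0.10 without 1 ovary. Of 27 called genes of the pathway and neighbour lists, 5 (LPL, ANGPTL4, RNF214, CADM1 and CLASRP) lost their call in at least 1 alternative. STAB2 was not tested at a minimum FPKM of 0.5. Single marker genes were not examined in this way. Little can be said of APOB, APOC3 and APOA4, which stayed below the level for a test.

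The labels do not say whether the replicate numbers pair the ovaries, and the main fit treats them as unpaired. Same-numbered ovaries correlated at 0.0258 to 0.199 after the phase means were subtracted, and 2 of 5 luteal phase ovaries correlated best with their own number. With a replicate block 4 members were called, as without it, and 7020 of all genes against 6711.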

Other observations

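Of the 3 hepatocyte markers tested, 2 were called, 66.7% against 43.7% of all genes. TTR, a carrier of thyroid hormone and retinol that is made outside the liver too, was at 0.501 ± 0.276 in luteal phase ovaries against 1.65 ± 0.251 in follicular phase ovaries (SD, n = 5 each; log2 fold change -1.63, limma adjusted p = 0.000645). AHSG, a plasma glycoprotein gene, was at 0.163 ± 0.0911 and 0.388 ± 0.116 (-0.93, adjusted p = 0.0148) and was tested because of its follicular phase level. FGG, a fibrinogen chain gene, was not called and had the opposite sign, at 2.41 ± 1.06 and 1.09 ± 1.31 (1.71, adjusted p = 0.0850). Of the macrophage markers, ADGRE1 was at 0.152 ± 0.101 and 1.17 ± 0.324 (-2.37, limma adjusted p = 7.78e-05). It reached 0.1 FPKM in 8 ovaries and was tested because of its follicular phase level. C1QA was at 84.6 ± 11.2 and 30.6 ± 6.22 (1.48, adjusted p = 2.54e-05), so members of that list moved in opposite directions.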
